A study of Mus musculus with 15 samples.

Results

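The core Sp7 and Dlx5 regions are places in the mouse genome where tagged Sp7 was found in both osteoblast systems of the study and tagged Dlx5 in the cell line as well. A region was selected by overlap of peaks. Peaks of both replicate lists of a group were merged where they shared at least 1 bp, a merged region counted when it held a peak of each list, and regions that met a FLAG control peak in the matching cell system were left out. Core regions are cell line Sp7 regions that overlapped a primary osteoblast Sp7 region and a cell line Dlx5 region. There were 814 of them among 5018 cell line Sp7 regions (16.2%). They covered 814 of 2097 primary Sp7 regions (38.8%) and 815 of 23682 Dlx5 regions (3.44%). The remaining cell line Sp7 regions comprised 3422 with Dlx5 and without primary Sp7, 17 with primary Sp7 and without Dlx5, and 765 with neither.

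The peak lists come from pulldown with the FLAG M2 antibody, which recognises a short peptide tag. The labels give 1% formaldehyde for all samples of both cell systems. Primary osteoblasts were calvarial cells of C57BL/6 mice at postnatal day 1, homozygous for a tagged Sp7 allele named Sp7-BioFL/BioFL (2 libraries), with a wild-type control of the same strain and age (1 library). MC3T3-E1, an osteoblastic cell line used at passages 5 to 10, was kept for 1 week in osteogenic medium with 10 ng/ml BMP-2, 10 mM beta-glycerophosphate and 50 ug/ml ascorbic acid phosphate. Tagged Sp7, a mutant named Sp7mut, Dlx5 and Sp1 were mapped in it (2 libraries each), with tagged GFP as control (1 library). The labels do not give the mutation, how the proteins were expressed in the line, how many pups were pooled or whether replicates were separate cultures, so the spread between lists may be technical. The Sp7 and Dlx5 lists of the line were called against a first input library and the Sp1 and Sp7mut lists against a second, so input and factor cannot be told apart in comparisons between those pairs.

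Sp7, also called Osterix, is a zinc finger transcription factor of the Sp family that osteoblast precursors need in order to become bone-forming cells. Dlx5 is a homeodomain transcription factor of the developing skeleton, and homeodomains bind AT-rich DNA. Sp1 is a widely expressed relative of Sp7 and binds GC-rich sites, many of them in promoters. Dlx factors are named together with Sp7 in the title of the series, and core regions are sites with Sp7 in both cell systems and Dlx5 in the line; Dlx5 was not mapped in primary osteoblasts in the samples used here. The deposited lists hold peak positions only, with no score or read count, so read depth is unknown. Each list was kept in its deposited order, and the position of a peak is given as a row number, or as the percentage of the list's rows up to it (row percentile, low at the start). The labels do not state what the order means.

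Each core region overlapped merged regions that held peaks of the 6 lists that chose it, and most also overlapped peaks of other lists. A peak of a merged primary or Dlx5 region need not reach the core region itself: 809 and 811 core regions overlapped a single peak of primary Sp7 list 1 and list 2, and 812 one of each Dlx5 list. Counted with the merged regions for the lists of the rule, 72 of the 814 regions (8.85%) were met in all 10 tagged lists, 400 (49.1%) in 9, 288 (35.4%) in 8, 37 (4.55%) in 7 and 17 (2.09%) only in the 6 lists of the rule. None of them overlapped a peak of the wild-type or of the GFP control (0 of 814 each). For the GFP control this follows from the rule. For the wild-type control it nearly does, because primary regions that met a wild-type peak were left out. The primary region covered a median of 97.6% of a core region. Neither 0 is therefore separate evidence. The intervals below cover counting error only.

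Core regions filled much of the start of each list that chose them. Among the first 1000 rows there were 462 and 453 in the primary Sp7 lists, 376 and 476 in cell line Sp7 and 430 and 449 in Dlx5. Of all rows, peaks on core regions were 30.5% and 25.4% in primary Sp7, 4.4% and 13.6% in cell line Sp7 and 2.71% and 2.06% in Dlx5. The lean to the start was thus weakest in the primary lists. As a percentage of its rows, the position also depends on the length of a list. In the Dlx5 lists their median row percentile was 3.02 in list 1 and 2.09 in list 2. In the cell line Sp7 lists it was 6.33 and 12.9, and in the primary Sp7 lists 32.2 and 27.1. These lists chose the regions, so the values describe them and were not tested. The lists of the mutant and of Sp1 had no part in the choice. Of the core regions, 770 had a peak in Sp7mut list 1 and 775 in list 2, at a median row percentile of 8.87 and 6.21. Sp1 peaks were present at 79 regions in list 1 and 477 in list 2, at a median of 61.3 and 52.7. The mutant therefore listed the core regions early. Sp1, where it met them, listed them around the middle, with quartiles of 32 and 83.9 in list 1 and 35.2 and 72.1 in list 2. For cell line Sp7 regions with Dlx5 and without primary Sp7, the medians were 26.4 and 22.1 in Sp7mut and 34.8 and 34 in Sp1. Among the first 100 rows, Sp7mut held 82 and 70 core regions and Sp1 held 2 and 1. Over all rows, peaks on core regions made up 7.36% and 5.25% of the Sp7mut lists and 0.787% and 1.73% of the Sp1 lists.

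**Figure D1:**
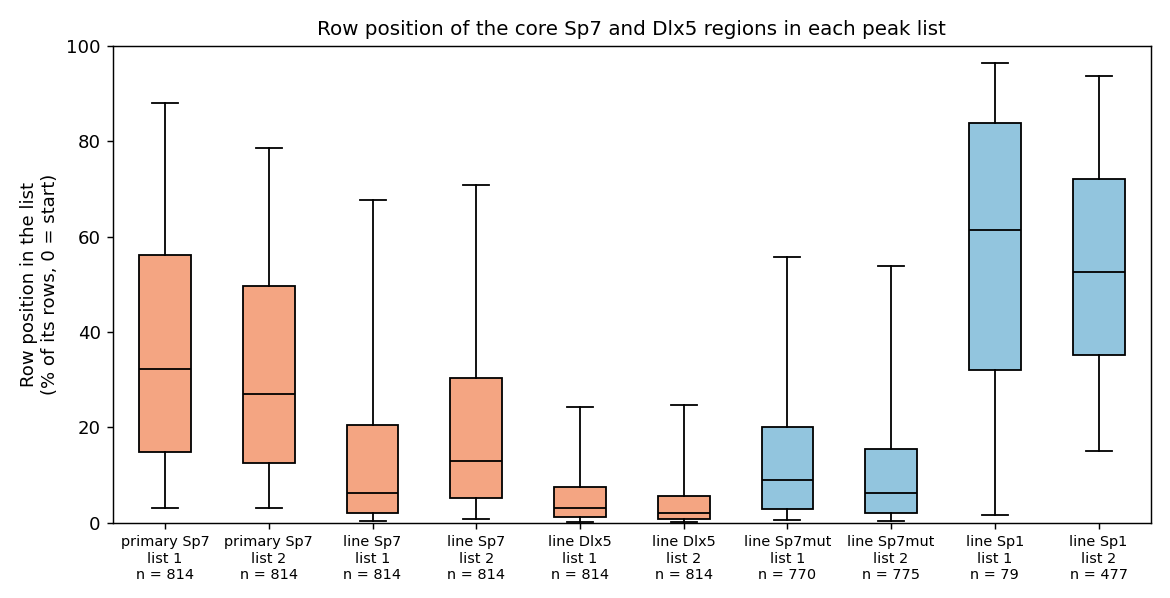
Row position of the core regions in each of the 10 tagged lists, as a percentage of the list's rows (boxes, quartiles with the median; whiskers, 5th to 95th percentile). Orange lists chose the regions and blue lists did not. The medians were 2.09 to 3.02 in Dlx5, 6.21 to 8.87 in Sp7mut and 52.7 to 61.3 in Sp1.

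The highest core regions can be followed through the lists one at a time. They were ranked by the mean row percentile over the 6 lists of the rule, and positions are 1-based in mm9. The first, chr19:23458791-23458957, stood at rows 10 and 22 of the primary Sp7 lists, rows 6 and 2 of cell line Sp7, rows 2 and 2 of Dlx5 and rows 1 and 3 of Sp7mut. Sp1 had no peak there in list 1 and reached it at row 11802 of 28210 in list 2. It was thus at the head of 8 lists and in the middle of the longer Sp1 list.

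The second, chr17:44447248-44447397, stood at rows 8 and 20 of primary Sp7, 21 and 21 of cell line Sp7, 18 and 10 of Dlx5 and 25 and 26 of Sp7mut, with Sp1 at row 8059 of list 2. The third, chr3:97860743-97860934, stood at rows 9 and 18 of primary Sp7 and between rows 56 and 89 of the 4 cell line Sp7 and Dlx5 lists. These are positions within each list, and the lists differ in length, so rows of different lists are not set against each other. The last of the 10 by mean position, chr15:97859520-97859677, stood at rows 1 and 1 of cell line Sp7, 1 and 3 of Dlx5 and 4 and 8 of Sp7mut, and at rows 38 and 107 of primary Sp7. It opened both cell line Sp7 lists.

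The region chr2:102623004-102623142 stood at rows 9 and 6 of cell line Sp7, 28 and 15 of Dlx5, 44 and 60 of primary Sp7 and 18 and 23 of Sp7mut. The 102 bp region chr11:107373427-107373528 was at rows 8 and 11 of cell line Sp7 and 7 and 53 of Dlx5, and at rows 231 and 309 of Sp7mut. Among the 10 highest regions it was the only one that came later than row 140 in a Sp7mut list. The other 4 of the 10, chr4:128896017-128896166, chr10:66406380-66406504, chr10:60257216-60257378 and chr8:97661614-97661777, lay at rows 13 to 84 of cell line Sp7 and 7 to 140 of Sp7mut. All 10 were Sp7mut regions, and 1, chr10:60257216-60257378, was an Sp1 region, at rows 6809 and 5692 of the Sp1 lists. Sequence and genes at these positions were not analysed here.

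Across the core regions, row positions varied together within a group and less between cell systems. The Spearman correlation between the pair of lists of a group was 0.853 for primary Sp7, 0.824 for cell line Sp7, 0.853 for Dlx5 (814 regions each) and 0.886 for Sp7mut (749 regions). Averaged over lists, cell line Sp7 and Dlx5 positions correlated at 0.688 and cell line Sp7 and Sp7mut positions at 0.721. Primary Sp7 positions correlated less with those of the line, at 0.334 with Sp7, 0.445 with Dlx5 and 0.369 with Sp7mut. With Sp1 positions, over the 73 regions in both Sp1 lists, the values were -0.401 for primary Sp7, -0.469 for Dlx5 and -0.0423 for cell line Sp7. These describe regions within shared lists, and regions are not replicates.

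Mutant Sp7 met core regions more often than other regions of Sp7 and Dlx5 in the line. Sp7mut regions, found in both mutant lists, overlapped 745 of 814 core regions (91.5%, 95% Clopper-Pearson interval 89.4 to 93.3), where 69.6% of all cell line Sp7 regions did. Of the 3422 regions of cell line Sp7 with Dlx5 and without primary Sp7, 66.8% (65.2 to 68.4) did. The difference of 24.7 percentage points was positive on each of the 20 chromosomes (p = 1.91e-06 by an exact two-sided sign test, 3.34e-06 adjusted over 7 contrasts by Benjamini-Hochberg). The test runs over chromosomes of the same lists and carries no spread between libraries, which the single lists show. In Sp7mut list 1 the shares were 94.6% of core regions and 71.0% of the comparison regions, where 73.8% of all cell line Sp7 regions had a peak. In list 2 they were 95.2% and 82.8%, against 83.6% of all. Core regions lay above the comparison regions in each list. The lists differed little from each other for core regions, but for the comparison regions they differed by nearly as much as the sets did in list 2.

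**Figure D2:**
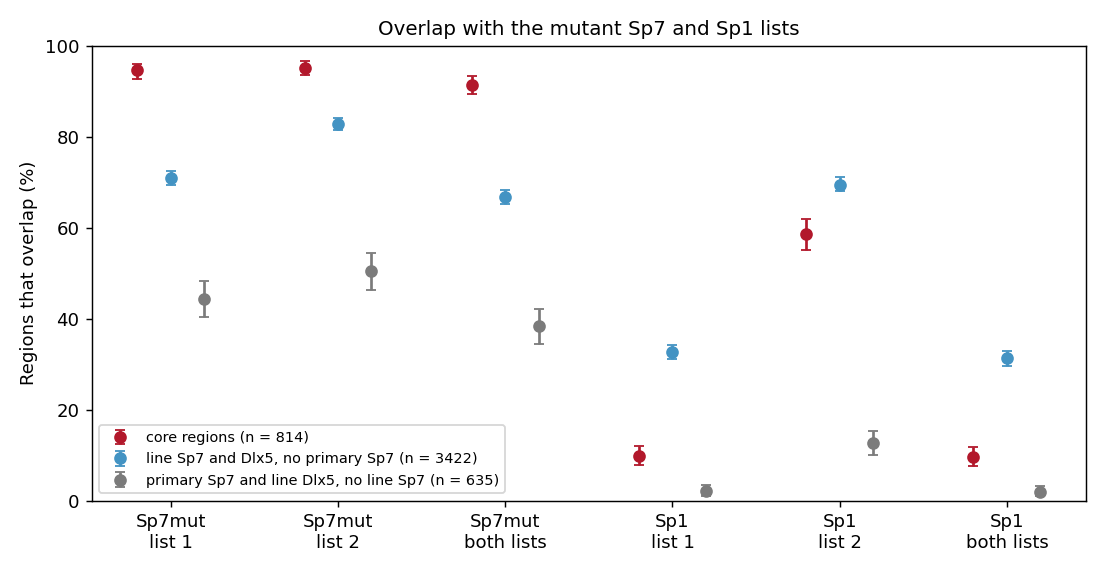
Percentage of regions with a peak in each Sp7mut and Sp1 list, or with a region found in both lists, for core regions and the 2 sets compared with them (bars, 95% Clopper-Pearson intervals). Core regions had Sp7mut in 94.6% and 95.2% by list, and Sp1 in 9.71% and 58.6%.

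Part of that difference went with position in the lists. Core regions made up much of the start of the cell line Sp7 list, with 55.7% of them in the first 20% of its regions against 15.3% of the comparison regions. Within that first 20%, Sp7mut met 98.0% of 453 core regions and 92.5% of 522 comparison regions. Within the last 20% it met 78.6% (65.6 to 88.4) of 56 and 41.5% (37.7 to 45.4) of 646. Compared within such bins of 20% the difference was 10.4 points, higher on 19 of 20 chromosomes (exact sign test, adjusted p = 7.01e-05), and within 20% bins of Dlx5 row position it was 15.5 points. The difference was 12.4 points without Sp7mut replicate 1, 47.9 without cell line Sp7 replicate 2, and 10.9 where a peak in either mutant list sufficed. Among the wider 50% of each list, which left 17 core regions, it was -3.03 points and did not pass the exact sign test (adjusted p = 0.481).

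**Figure D3:**
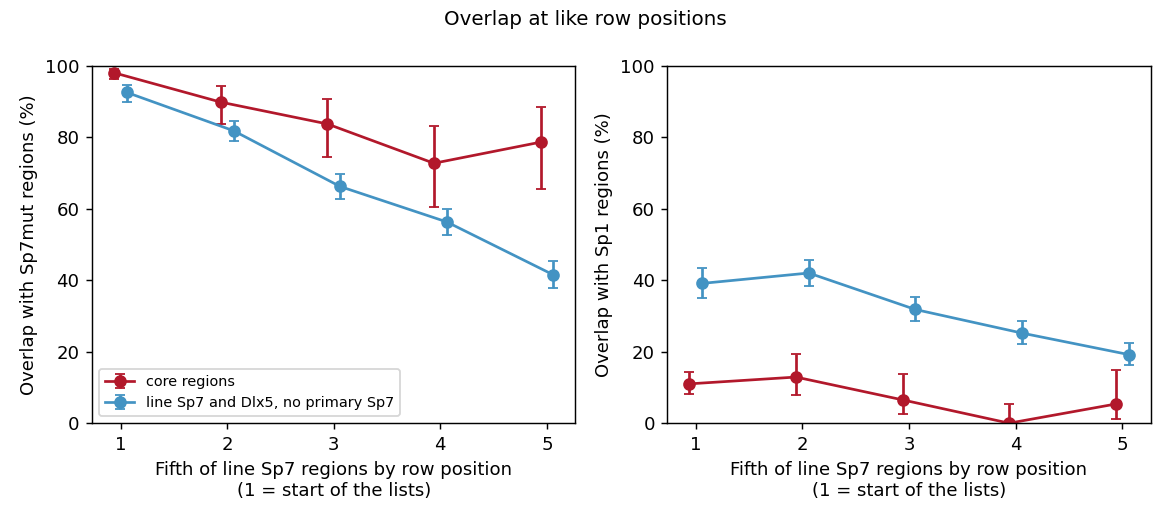
Percentage of core regions and of comparison regions that overlapped an Sp7mut (left) or an Sp1 region (right), by bins of 20% of the cell line Sp7 regions in row order (bars, 95% Clopper-Pearson intervals). For Sp7mut the sets were closest in the first bin, at 98.0% and 92.5%, and for Sp1 core regions lay lower in each of the 5 bins.

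Where the mutant met a region, it also listed core regions earlier. Over the 745 core regions with an Sp7mut region, the median row percentile in the Sp7mut lists was 7.47, against 22.8 over 2285 comparison regions. The difference of -15.3 was negative on 19 of the 20 chromosomes (p = 4.01e-05 in the exact two-sided sign test, adjusted 5.61e-05). It was -6.03 within 20% bins of cell line Sp7 position, -7.67 within 20% bins of Dlx5 position, -9.45 with an overlap of at least 50% of both regions, -8.19 in the earlier 50% of each list and -24.5 without cell line Sp7 replicate 2. Among the wider 50% of each list it was -20.8 and did not pass the exact sign test (adjusted p = 0.481).

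Sp1 met core regions less often than the other regions of Sp7 and Dlx5 in the line. Sp1 regions overlapped 78 core regions (9.58%, 95% Clopper-Pearson interval 7.65 to 11.8), where 30.3% of all cell line Sp7 regions and 31.3% (29.7 to 32.9) of the comparison regions did. The difference of -21.7 percentage points was negative on all 20 chromosomes (p = 1.91e-06 in the exact two-sided sign test, adjusted 3.34e-06). In Sp1 list 1, which has 10549 peaks, the shares were 9.71% and 32.6%, against 31.7% of all cell line Sp7 regions. In list 2, with 28210 peaks, they were 58.6% and 69.5%, against 68.7% of all. Core regions lay lower within each list, but the lists differed from each other by more than the sets did. In the fourth of the 5 bins, 0 of 66 core regions had an Sp1 region (interval 0 to 5.44%), against 25.2% of 750.

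The size of the Sp1 difference moved with position in the lists, and with the lists and overlap used. It was -26.7 points within 20% bins of cell line Sp7 position and -6.48 within 20% bins of Dlx5 position (adjusted p = 0.00361, lower on 17 of 20 chromosomes, exact sign test). It was -11.0 without Sp1 replicate 1, -12.6 without cell line Sp7 replicate 2, -12.0 where a peak in either Sp1 list sufficed and -13.9 with an overlap of at least 50% of both regions. Among the wider 50% of each list it was -6.72 and did not pass the exact sign test (adjusted p = 0.150).

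**Figure D4:**
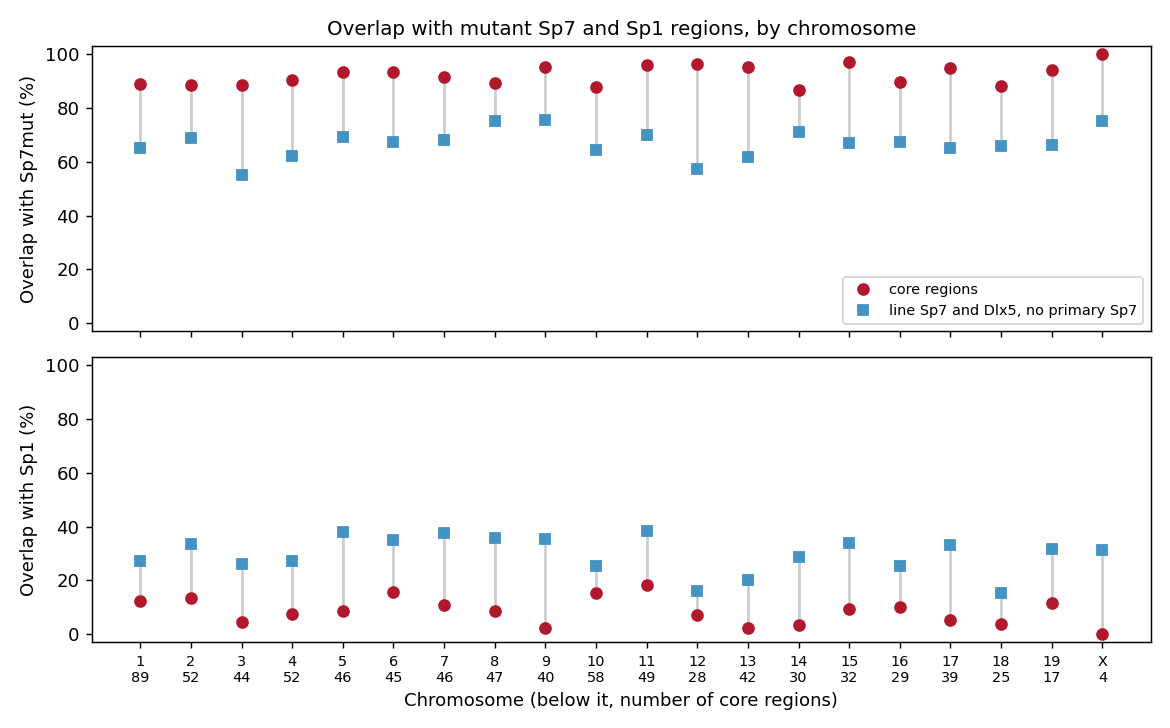
Percentage of core regions (circles) and comparison regions (squares) on each chromosome that overlapped an Sp7mut (top) or an Sp1 region (bottom), with the number of core regions under the chromosome. Circles lie above squares for Sp7mut and below them for Sp1 on all 20 chromosomes, and chromosome X holds 4 core regions.

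Seen from primary osteoblasts, core regions differed from the other primary Sp7 regions with Dlx5. The 635 primary Sp7 regions with a Dlx5 region and no cell line Sp7 region were taken as the comparison. Sp7mut regions overlapped 91.4% (89.3 to 93.2) of the 814 primary regions at core sites, where 48.9% of all primary Sp7 regions did, and 38.3% (34.5 to 42.2) of the 635. The difference of 53.1 points was positive on all 20 chromosomes (p = 1.91e-06 in the exact two-sided sign test, adjusted 3.34e-06). Sp1 regions overlapped 9.34% (7.43 to 11.5) of the primary regions at core sites, 4.53% of all primary Sp7 regions and 1.89% (0.980 to 3.28) of the 635. That difference of 7.45 points was positive on 17 chromosomes and negative on 1 (exact sign test p = 0.000145, adjusted 0.000169). In Sp1 list 1 the shares were 9.46% at core sites and 2.05% of the 635, and in list 2 they were 58.5% and 12.6%. For Sp7mut the shares were 94.1% and 44.3% in list 1, and 95.2% and 50.4% in list 2. Core regions thus had Sp1 less often than other cell line Sp7 regions with Dlx5, and more often than other primary Sp7 regions with Dlx5. Both primary comparisons share the absence of cell line Sp7 as the dividing rule, and the mutant was mapped in the same line.

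The Sp7mut difference was 28.8 points within 20% bins of Dlx5 position, and 6.86 points among the wider 50% of each list, where it did not pass the exact sign test (adjusted p = 1). The Sp1 difference was 45.9 points without Sp1 replicate 1 and 45.8 where either list sufficed. It was 2.48 in the earlier 50% of each list, and it did not pass the exact sign test with an overlap of at least 50% of both regions (2.46 points, adjusted p = 0.0763) or among the wider 50% (10.5 points, adjusted p = 0.583).

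Regions just short of the primary rule lay between core regions and the rest for the mutant, but not for Sp1. Among the comparison regions of the line, 310 had a peak in at least 1 primary Sp7 list without counting as a primary region, and 3112 had none. Sp7mut regions overlapped 83.5% (78.9 to 87.5) of the 310 and 65.1% (63.4 to 66.8) of the 3112, against 91.5% of core regions. For Sp1 the intervals of these 2 sets overlapped, at 30.3% (25.3 to 35.8) and 31.4% (29.8 to 33.1), with core regions at 9.58%. The median row percentile in cell line Sp7 was 10.8 for core regions, 17.8 for the 310 and 36.9 for the 3112. A further 5 comparison regions missed a primary Sp7 region by 200 bp or less. Of the 17 regions with Sp7 in both systems and no Dlx5 region, 13 had a peak in at least 1 Dlx5 list, 14 were Sp7mut regions and 6 were Sp1 regions. Over all cell line Sp7 regions, 69.6% were Sp7mut regions and 30.3% were Sp1 regions, and 17 regions are few to set against these shares.

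Peaks of the different proteins were nearly centred on one another in core regions. Cell line Sp7 and Dlx5 midpoints lay a median of 15 to 16.5 bp apart, depending on which of the 4 list pairs was used. The replicates of Sp7 lay 15.2 bp apart and those of Dlx5 12.5 bp, so Sp7 and Dlx5 differed in position about as much as the lists of 1 protein. The same held in the comparison regions at wider distances, with 28 to 31.5 bp from Sp7 to Dlx5, 27.5 bp between Sp7 replicates and 23.5 bp between Dlx5 replicates. Sp7mut peaks lay 14.5 to 16.5 bp from cell line Sp7 and 14 to 15 bp from Dlx5. Primary Sp7 peaks lay 20.5 to 22 bp from cell line Sp7 and 19.5 to 20.5 bp from Dlx5, with 21 bp between the primary replicates. Sp1 peaks, where present, lay farther away, at 32.5 to 50.5 bp from cell line Sp7 and 33 to 59 bp from Dlx5, and 28.5 bp apart between replicates. No test was run between these ranges.

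Midpoints of Sp7, Dlx5 and Sp7mut peaks lay closer in core regions than in the comparison regions, those of replicates of 1 protein included. Replicate Sp7mut midpoints, for example, lay 13 bp apart in core regions and 21 bp in comparison regions. Sp1 was the exception, with replicate midpoints 28.5 bp apart in core regions and 21 bp in comparison regions. Sp7 and Dlx5 positions chose both sets, so their distance is given as a description. The median Sp7 to Dlx5 distance, averaged over the 4 pairs of lists, was 16.9 bp in core regions and 38.0 bp in comparison regions, a difference of -21.1 bp. The average was within 50 bp in 692 core regions (85.0%) and in 61.5% of the comparison regions. Core regions were also narrower, with a median merged width of 179 bp (quartiles 157 and 220) against 214 bp (169 and 291). The distance moved with position and width: the difference was -7.76 bp within 20% bins of cell line Sp7 position, -7.10 within 20% bins of width, -6.25 with an overlap of at least 50% and -9.75 in the earlier 50% of each list. It was -4.73 bp within 20% bins of Dlx5 position and -19.2 bp among the wider 50%, which left 17 core regions.

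**Figure D5:**
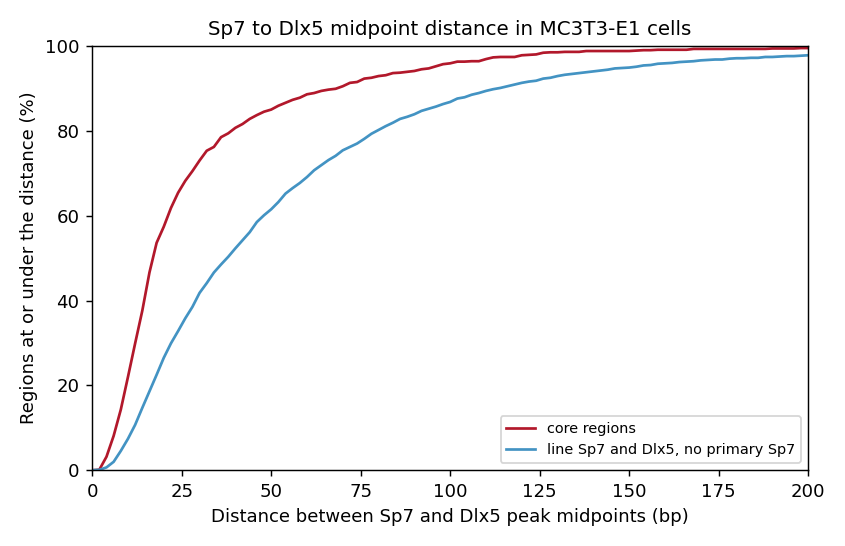
Cumulative percentage of core regions (red) and of cell line Sp7 regions with Dlx5 and without primary Sp7 (blue) by the distance between Sp7 and Dlx5 peak midpoints in bp, averaged over the 4 pairs of lists. At 50 bp the curves stand at 85.0% and 61.5%.

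The overlaps that chose the regions were mostly deep. The overlap of a core region with its primary Sp7 region had a median of 165 bp and covered a median of 97.6% of the core region, and 361 core regions lay wholly inside the primary region. Only 2 overlapped it by under 50 bp. The smallest overlap, 1 bp, was at chr5:47856134-47856325, a region at rows 16930 and 5727 of the cell line Sp7 lists. The largest, 520 bp, was at chr5:125869897-125870416, which stood early in the Sp1 lists, at rows 378 and 289, and late in the Dlx5 lists, at rows 15576 and 29735. The overlap with the Dlx5 region had a median of 160 bp and was at least 24 bp.

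Core regions without an Sp7mut region stood later by median in the lists of the rule than those with one. The 69 core regions without an Sp7mut region had a median mean row percentile of 32.8 over the 6 lists, against 16.9 for the 745 with one. Of these, 51 overlapped a peak in at least 1 mutant list and 18 overlapped none. The highest of the 18, chr3:145358205-145358327, stood at rows 172 and 132 of primary Sp7, 1034 and 3060 of cell line Sp7 and 391 and 520 of Dlx5. Next were chr5:100845557-100845713, at rows 995 and 1333 of cell line Sp7, chr8:111133129-111133311, at rows 4704 and 1849, and chr3:65298790-65298920, at rows 1213 and 1169. The last of the 5 lay on chromosome 18. None of these 5 had a peak in an Sp1 list.

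Of the 78 core regions with Sp1, 77 were mutant regions too, where 90.8% of core regions without Sp1 and 941 of 1071 comparison regions with Sp1 were. Their median width was 206 bp, against 178 bp without Sp1, and their median Sp7 to Dlx5 distance was 29.2 bp against 16.5 bp. After chr10:60257216-60257378, the highest were chr15:64302540-64302695 and chr4:57310313-57310474. The first of this pair stood at rows 60 and 33 of cell line Sp7 and at rows 9313 and 9816 of Sp1, the second at rows 105 and 104 and at rows 5173 and 2459. At chr6:149281644-149281811, Sp7 was at rows 3 and 5, Dlx5 at rows 6 and 11 and the mutant at rows 8 and 11, with Sp1 at rows 9649 and 8062. At chr6:84034678-84034848, Sp7 was at rows 73 and 44, and the Sp1 peak overlapped in list 2 only, at row 8315. At these 5 sites the Sp1 peaks lay at row 2459 or later of their lists.

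At the other end, the 5 core regions lowest in the lists had mean row percentiles of 61.0 to 61.5. They were chr16:30645857-30646157, chr8:47667191-47667428, chr7:106111098-106111273, chr7:28474075-28474375 and the 1 bp overlap on chr5 named above. Of these, 2 were Sp7mut regions and 1, chr7:28474075-28474375, was an Sp1 region.

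Most core regions had no other core region close by. Of the 814, 694 had no other core region within 50 kb, 108 lay in 54 pairs and 12 in 4 groups of 3. A core region other than the region itself lay within 50 kb of 14.7% (95% Clopper-Pearson interval 12.4 to 17.4) of core regions. For the comparison regions, which are not core regions, the share was 10.8% (9.74 to 11.8), and the difference was not tested. The median gap between neighbours on a chromosome was 1400 kb. The groups of 3 were at chr17:80120490-80138730, chr4:63816743-63861791, chr1:64887587-64899203 and chr16:91858838-91883407, with spans of 11.6 to 45.0 kb. None of their 12 regions was an Sp1 region, where 9.58% of all core regions were, and 12 regions are too few to set against that share. On chr1 the 3 core regions lay among 6 primary Sp7 regions. The pair with the lowest mean row percentile was at chr7:121882098-121917703, where 6 Dlx5 regions lay within 35.6 kb.

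Single core regions were often close to further Dlx5 regions, but not more often than the comparison regions. A second, separate Dlx5 region lay within 10 kb of 415 core regions (51.0%, 95% Clopper-Pearson interval 47.5 to 54.5), where 51.7% of all cell line Sp7 regions and 51.4% (49.7 to 53.1) of the comparison regions had one. Such neighbours come from the Dlx5 lists of the rule, though the rule asked only for a Dlx5 region that overlaps. The difference of -0.420 points did not pass the test (higher on 12 and lower on 8 chromosomes, exact two-sided sign test p = 0.503, adjusted 0.503). It was 2.62 points without cell line Sp7 replicate 2, where it passed the exact sign test (adjusted p = 0.0414), and its sign turned under 7 of 18 alternatives. A separate primary Sp7 region, not overlapping the region itself, lay within 10 kb of 10.7% of core regions and 6.37% of the comparison regions. Core regions have a primary region of their own besides, and comparison regions by the rule have none. Another cell line Sp7 region lay within 10 kb of 155 of 814 core regions (19%) and of 19.5% of the comparison regions. These last shares were not tested.

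The chromosomes contributed unequally. Core regions made up 8.82% of the cell line Sp7 regions on chromosome 6, 8.95% on chromosome 19 and 10.1% on chromosome 17, and 29.6% and 29.7% on chromosomes 13 and 14. Chromosome 1 held the most, 89 regions or 10.9% of all core regions, against 7.22% of the comparison regions, and chromosome 6 held 5.53% against 11.5%. As a share of primary Sp7 regions, core regions ranged from 26.3% on chromosome 18 to 48.1% on chromosome 1.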

How the data were processed

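The data were 12 peak lists, 1 for each tagged or control library, among 15 samples; 3 input samples were not analysed here. The deposited lists have 3 columns (chromosome, start, end), and positions were read as BED, with starts counted from 0. The submitters' processing notes name the mm9 build. Which aligner, caller and cutoff produced the peaks is not given in the sources used here. Groups and replicate numbers came from sample titles. Adjacent peaks that touch without sharing 1 bp were not merged. Peaks were called per library, so a region had to recur in both lists of its group.

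Shares were compared by chromosome, over 20 chromosomes, in an exact two-sided sign test (19 autosomes and X) with Benjamini-Hochberg adjustment over 7 contrasts and a threshold of 0.05; the midpoint distance was among the 7 but is given without its p, since Sp7 and Dlx5 positions chose the regions. Bins of 20% were cut from all regions of a group by row percentile, region width or Dlx5 row percentile, and differences were weighted by the number of core regions. Row positions of the lists of the rule are those of the overlapping merged region. Those given by single Sp7mut or Sp1 list are of the earliest overlapping peak. In the contrast of Sp7mut row position, the value is that of the overlapping merged Sp7mut region, averaged over both lists. Regions were named by rule: the 10 highest, the 5 highest without a mutant peak and with Sp1, the 5 lowest, the 5 longest runs, and the extremes of overlap. The members and lists were chosen with earlier results of these data known. The 2 planned motif contrasts and gene names were not run, because no sequence or annotation of mm9 was used here. Scripts were tested on planted overlaps. Tools were scipy 1.17.1 with pandas 2.3.3 and numpy 2.4.6 under Python 3.11.15, and matplotlib 3.10.9 for plots.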

Additional observations from a re-analysis of the deposited data

How the results depend on the processing

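The number of core regions was 814 to 1024 when 1 replicate list was left out, 557 with an overlap of at least 50% of both regions, 443 in the earlier 50% of each list and 17 in the wider 50%, so values from the wider 50% rest on 17 regions. With 1 replicate list left out at a time, the Sp7mut difference was 12.4 to 47.9 points against cell line regions and 44.8 to 63.4 points against primary regions, the Sp1 difference was -22.9 to -11.0 and 6.87 to 45.9 points, the Sp7mut row position -24.5 to -15.3, the Sp7 to Dlx5 distance -21.2 to -17.5 bp and the neighbouring Dlx5 difference -2.43 to 2.62 points. In the wider 50% of each list these 7 differences were -3.03, 6.86, -6.72, 10.5, -20.8, -19.2 and 7.80 in the same order, and none of the tested ones passed; fewer regions were tested there. The Sp1 difference against primary regions was 2.46 with an overlap of at least 50% and did not pass, and the cause was not tested. The distance, a description, was -4.73 bp within 20% bins of Dlx5 position. The neighbouring Dlx5 difference was 3.22 within 20% bins of row position, 1.93 within 20% bins of width and 2.92 with an overlap of at least 50%. The comparisons within 20% bins of width and of Dlx5 position, and with a peak in either list, were chosen after seeing the data. Between samples with the same replicate number, no paired analysis was possible because no contrast sets groups of samples against each other. Each contrast sets core against comparison regions within the same lists, and the sign test compared these sets within each chromosome. No groups of samples therefore form the arms of a fit. Sp7mut and Sp1 shares by single list stand in the text above. Alternatives for the 2 motif contrasts were not run. Read depth is unknown, so a missing peak is not evidence that a protein was absent.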
